A study of Mus musculus with 12 samples.

Results

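Small nucleolar RNAs (snoRNAs) and small Cajal body RNAs (scaRNAs) were followed in wild-type (WT) and Dgcr8 knockout (Dgcr8 KO) mouse embryonic stem cells (ESCs). The members were all genes that GENCODE gives the biotype snoRNA or scaRNA and that reached at least 3 CPM (counts scaled to a common library total) in at least 3 of the 12 libraries. Of 1558 such genes in the count table, 199 met this rule, among 14033 genes of any kind that did. By symbol, 57 were box C/D RNAs (Snord), 26 were box H/ACA RNAs (Snora), 4 were Cajal body RNAs (Scarna) and 112 carried another symbol, 106 of them a Gm number. The biotype was scaRNA for 9 of the 199 and snoRNA for 190.

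Both kinds of RNA are guides. Box C/D RNAs direct 2′-O-methylation and box H/ACA RNAs direct pseudouridylation, mainly of ribosomal RNA (rRNA), and scaRNAs do the same for spliceosomal RNAs in Cajal bodies. In mammals most lie in introns of host genes and are released after splicing by debranching and by trimming of both ends, while a few, such as Snord13 and Scarna2, are transcribed on their own. DGCR8 is the RNA-binding partner of Drosha in the Microprocessor, which cuts microRNA hairpins, and it has also been described to bind mature snoRNAs apart from Drosha.

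ESCs of both genotypes were grown with LIF, 2i and serum, and every culture received 500 uM 4-thiouridine (4sU) for 30 min before its RNA was split. RNA that had taken up 4sU was biotinylated and captured (4sU libraries, a measure of nascent RNA), and the other portion was depleted of rRNA (total libraries, a measure of steady-state RNA). Each genotype and assay had 3 libraries. The KO libraries are labelled Dgcr8 KO in their titles, although their source label names another gene, and the labels do not say whether the cultures of a genotype are separate clones, so p values measure the spread between these samples. Total counts were 4593914 to 9295245 per library. As a check of the labels, Dgcr8 was at 94.1 ± 8.39 CPM in WT total RNA and 32.0 ± 0.936 CPM in Dgcr8 KO total RNA (SD, n = 3), a log2 change of -1.60 ± 0.08 (SE), and in 4sU RNA the change was -0.51 ± 0.08. Summed markers of ESCs were at 4133 to 4251 CPM in WT and 4315 to 4376 CPM in KO total libraries, and at 5516 to 5585 CPM in WT and 6524 to 7019 CPM in KO 4sU libraries, so the genotypes did not overlap in either assay. The sum in total RNA hides changes in both directions. At an adjusted p below 0.05 in limma, Pou5f1, Sox2 and Zfp42 were higher in KO total RNA (background over all genes 27.2%). Nanog, Esrrb, Klf4 and Tfcp2l1 were lower there (background 36.7%). In 4sU RNA 6 of the 7 were higher and 0 lower (background 28.3% and 28%). The summed fibroblast markers stayed at or below 3.92 CPM in all 12 libraries. Of 3 markers of primed or mesoderm cells, Fgf5 and T did not pass the filter, and the summed level was 14.5 to 16.6 CPM in WT and 24.4 to 28.8 CPM in KO total libraries, and 29.8 to 32.1 CPM in WT and 59.2 to 68.2 CPM in KO 4sU libraries, nearly all of it Otx2. Of 3 endoderm markers, Gata4 alone passed the filter, and the sums were between 5.82 and 17.01 CPM. In 4sU RNA Gata4 averaged 10.7 CPM in WT and 15.5 CPM in KO. Sox17 went the other way, from 3.15 to 0.756 CPM, as did Gata6, from 1.21 to 0.407 CPM. The part of these markers in the genotype changes was not tested.

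The libraries were not made for small RNA. Reads were 50 bases long and the members had a median annotated length of 94 bases (range 60 to 414), with medians of 80 bases for C/D, 133.5 for H/ACA and 270 for Scarna members. The 4sU and total portions also went through different clean-up steps. A read from an unspliced host intron and a read from the released small RNA fall on the same interval and were counted alike. Levels here are therefore those of RNA recovered by these preparations, and recovery, precursor and mature RNA cannot be told apart.

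The ends of 6 members are shown. Apart from Gm23212, which was named for its level per kilobase in WT total RNA, they carry contrasts described here. The 6 members include a long C/D RNA with a high total over 4sU ratio (Snord17, in Snx5) and a short Gas5 RNA that was high in 4sU RNA (Gm23212). Gm22486 (listed as Snord94 in RefSeq, in Ptcd3) had the largest called change of its total over 4sU ratio between the genotypes. Snora73b, in Snhg3, had the highest level per kilobase in WT total RNA among members with a Snora symbol. Gm25117, in Nap1l1, is an H/ACA-type RNA that fell in 4sU RNA. Scarna2 is the scaRNA with the largest rise in Dgcr8 KO. The first 30 bases (start), the last 30 bases (end) or both are given 5′ to 3′ from GENCODE M21 transcripts, with the box C motif (TGATGA), the box D motif (CTGA) or the ACA box in capitals. Capitals mark matching letters only.
Snord17, chr2:144265979-144266216, minus strand, start: gtgaaaTGATGAttctgtttatccattcgc
Snord17, end: caccaagatgagtggtgcaaatCTGAtcac
Gm23212, chr1:161036682-161036741, plus strand, start: cctgcaTGATGAcgaacaaatactgactac
Gm23212, end: ctgaagatcttattagctctatCTGAtggt
Gm22486, chr6:71882557-71882693, minus strand, start: caggctgTGATGAttggcgcaggggtacgg
Gm22486, end: acatgagactgttgccttaatCTGAgcctg
Snora73b, chr4:132352322-132352526, minus strand, end: ctgaggagacaaaccatgcaggaaACAaaa
Gm25117, chr10:111481493-111481636, plus strand, end: ccaaagctgtttcatgcctagggcACAata
Scarna2, chr3:108554338-108554751, minus strand, end: gccgctgattaccgagcgattctgatCTGA

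The boxes were also searched in the members without a Snord, Snora or Scarna symbol. TGATGA in the first 20 bases together with CTGA in the last 15 was present in 34 of the 57 C/D members and in none of the 26 H/ACA members. ANANNA in the middle stretch of the RNA (30% to 70% of its length) together with ACA 2 to 4 bases before the 3′ end was present in 23 of the 26 H/ACA members and none of the C/D members. Of the 112 members with other symbols, 37 held the C and D pair and 47 the H and ACA pair, 3 of them (Gm24299, Mir5117 and Rnu73b) both, and 31 held neither. In the reference annotation, the C and D pair was found in 0.0476% of 2100 microRNA genes and the H and ACA pair in 2.43%, against 0% and 1.53% of 1374 spliceosomal RNA genes.

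Of the 199 members, 144 lay within a protein-coding host on the same strand, 37 within a noncoding host (a long noncoding or processed transcript, as GENCODE types Cct6a) and 18 within neither. There were 102 distinct hosts, among them 29 ribosomal protein genes (Rpl or Rps symbols) that held 57 members. Gas5 held 9 members, Snhg1 8, and Eif4a2, Nop56 and Rpl4 5 each. Nop56 itself encodes a core protein of C/D particles. Of the 1359 snoRNA and scaRNA genes that did not meet the rule, 1100 had no count in any library, and 17.1% had more than 50% of their 50-base words in annotated transcripts of genes elsewhere, on either strand, against 6.53% of the members. Just inside the limit, the third-highest CPM over libraries was 3.06 for Gm22442, 3.15 for Gm26109 and 3.34 for Gm23722. Just outside it was 2.98 for Gm25636 and 2.97 for both Snora20 and Gm23787.

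Members made up 0.601% to 0.734% of counts in WT 4sU libraries, 0.461% to 0.548% in KO 4sU libraries, 0.288% to 0.312% in WT total libraries and 0.359% to 0.391% in KO total libraries. In 4sU RNA, WT replicate 2 had the highest share and KO replicate 3 the lowest, and both stood apart from the other 4sU libraries of their genotype. The genotype comparisons below are therefore given with and without these cultures. On the scale of CPM per kilobase, the highest levels in WT total RNA were those of Gm26447 in Eif4a2 (1914) and Snora73b (1864). Snord15a in Rps3 (685), Snord13 (664), Gm23262 in Eif4g2 (699.6), Gm22357 in Gas5 (747) and Scarna2 (587) followed. The per-length scale treats all bases as equally recoverable, which RNAs near the read length may not be.

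The first comparison set total RNA against 4sU RNA within a genotype, the measure used in the study for relative stability. Most members were lower in total RNA than in 4sU RNA, as the plot of this ratio against length shows. The median log2 ratio of total over 4sU in WT was -2.08 over the members and 0.08 over all genes tested. At an adjusted p value below 0.05 and a log2 change beyond 1 in limma, 145 of 199 members were lower and 18 were higher in WT (background over all genes 25% lower and 21.4% higher). In Dgcr8 KO the counts were 123 lower and 28 higher (background 27.1% and 19.1%), with a median of -1.71, and 123 members were lower and 18 higher in both genotypes. These counts are partly set by the rule for members, since 54 of the 199 reached 3 CPM in no total library and 5 in no 4sU library. Among the 127 members with 3 CPM in at least 3 libraries of each assay, 79 were lower and 12 higher in WT, with a median of -1.42.

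**Figure D1:**
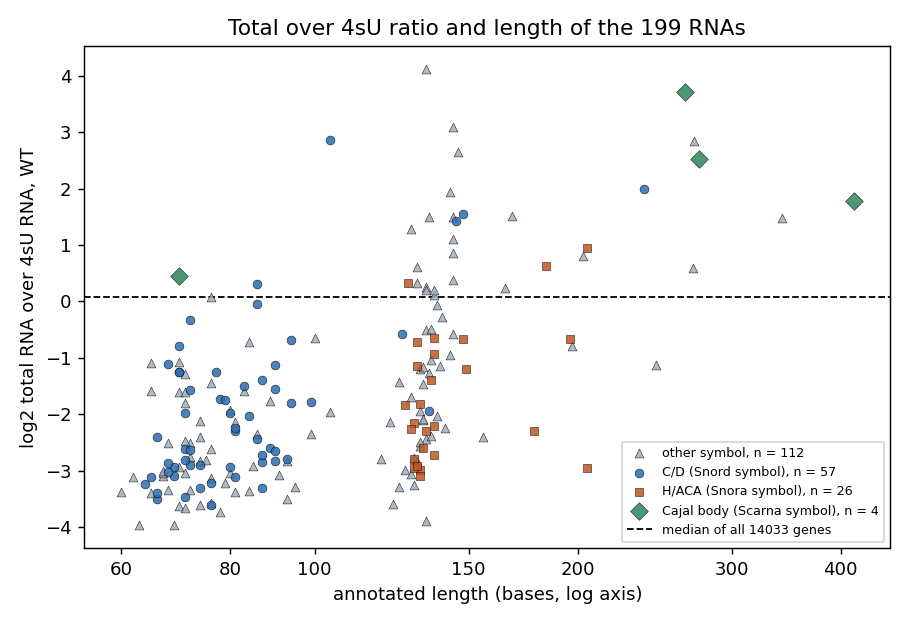
Log2 ratio of total over 4sU RNA in WT ESCs (y axis) against annotated length in bases (x axis, log scale) for the 199 members, with the median of all genes as a dashed line. Members of 60 to 100 bases lie mostly below the line (96 of 105 called lower), while 3 of the 4 Scarna members lie 1.79 or more above 0.

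The ratio moved with length. Over all members, those of 60 to 100 bases (n = 105) had a median log2 ratio of -2.65 in WT and those of 101 to 150 bases (n = 76) of -1.33. Members of 151 to 414 bases (n = 18) had a median of 0.72. Over the 199 members, which share libraries, Spearman's rho of length with the ratio was 0.57 in WT and 0.59 in Dgcr8 KO. Within C/D members it was 0.48 (n = 57) and within H/ACA members 0.27 (n = 26). Since some members passed the filter through 4sU RNA alone, the same was computed over the 127 members covered in both assays. The WT medians were then -2.14 (n = 59), -0.95 (n = 51) and 0.64 (n = 17) from the shortest to the longest class, and rho was 0.59. GC content also ran with the ratio (rho 0.37). By class, the WT medians were -2.29 for C/D, -1.99 for H/ACA and 2.15 for Scarna members. Among members with other symbols the gap was wider, with -2.75 for the 37 with the C and D pair and -1.14 for the 47 with the H and ACA pair. Whether length acts through recovery in the 2 preparations was not tested.

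Of the 5 members with the highest total over 4sU ratios in WT, 3 were of biotype scaRNA (Scarna6, Gm22442 and Gm25395). Scarna6, in Atg16l1, was at 41.8, 39.3 and 36.1 CPM in WT total RNA and at 3.38, 2.72 and 2.49 CPM in WT 4sU RNA. Its log2 ratio was 3.72 ± 0.25 (SE). Gm25395, also in Atg16l1 and of biotype scaRNA, had a log2 ratio of 2.84 ± 0.20. Snord13, which guides acetylation of small-subunit rRNA and has its own promoter, was at 73.2, 71.0 and 62.9 CPM in WT total RNA and at 9.81, 8.99 and 9.25 CPM in WT 4sU RNA. The groups did not overlap, and its log2 ratio was 2.86 ± 0.14. Gm23105 in Pawr was at least 15.9-fold higher in total than in 4sU RNA, a bound set by the floor of 3 counts per library because it had 3 counts or fewer in each WT 4sU library. Gm22442 in Chd3 was at least 4.10-fold higher by the same floor. Of their 50-base words, 15.3% and 9.47% occur elsewhere, and unique mapping could have removed such reads.

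The 5 lowest ratios belonged to intronic RNAs, 4 of them under 100 bases and Gm24507 with 134. Gm25744 in 1110038B12Rik, with 63 bases and both C and D boxes, was at 47.3, 50.0 and 51.1 CPM in WT 4sU RNA and at 4.22, 2.07 and 3.60 CPM in WT total RNA. Its log2 ratio was -3.97 ± 0.22. Gm22680 in Snhg1 had -3.95 ± 0.27, Gm24507 in Tmem167 -3.89 ± 0.59, Gm26457 in Eef1b2 -3.74 ± 0.45 and Mir3096 in AI506816 -3.66 ± 0.47. Each of these 5 members was below the CPM limit of the filter in some library. No floor bound is given for their ratios, so the order is that of fitted values only. The ratio of Gm24507 was -3.10 without WT replicate 1 and -4.38 without WT replicate 2. Gm26457 overlaps a second record of the same symbol, and Mir3096 carries a microRNA symbol but the biotype snoRNA.

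Members that share a host could differ widely. In Gas5, a noncoding host, Gm25789 had a log2 ratio of -3.56 and Snord47 of -1.24. That is a 4.99-fold spread between RNAs of 76 and 77 bases from 1 transcript, and the Gas5 transcript itself had a ratio of -2.39. In Eif4a2, which encodes a translation initiation helicase, Snord2 had -3.08 and Gm26447 1.29, a 20.7-fold spread. Gm26447 was at 236, 272 and 233 CPM in WT total RNA and at 95.9, 108 and 101 CPM in WT 4sU RNA. Snord2, 69 bases long, averaged 128 CPM in WT 4sU RNA and 15.0 CPM in WT total RNA. In Snhg1 the ratio ran from -3.95 (Gm22680) to -0.58 (Snord22), and Snord22 overlaps an annotated Snhg1 exon, where reads of both genes were left uncounted. In Rpsa it ran from -2.40 (Gm24044) to 0.81 (Gm26448).

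**Figure D2:**
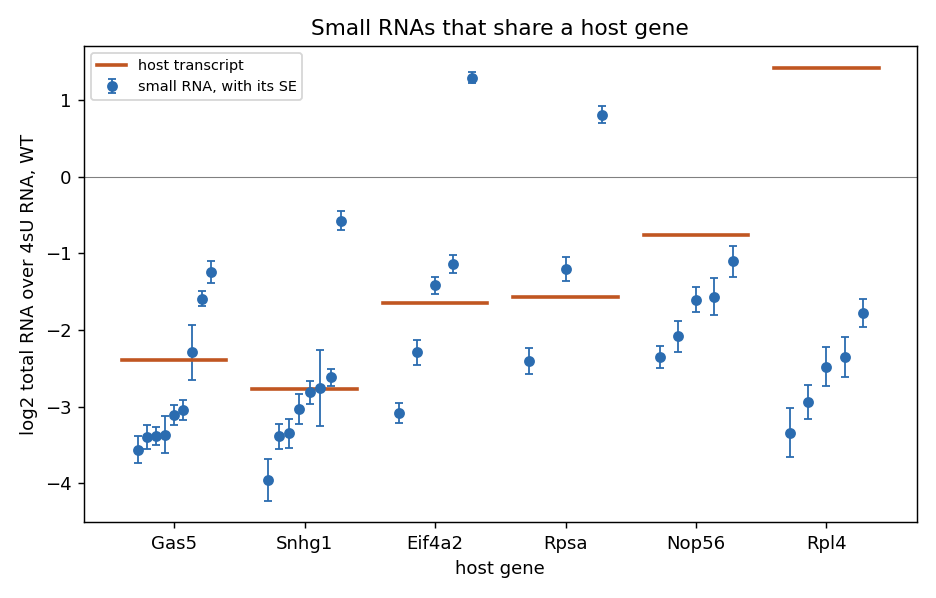
Log2 ratio of total over 4sU RNA in WT ESCs (y axis) for members grouped by host gene (x axis), as points with the standard error of the fit, and for the host transcript as a bar. In Eif4a2 the members run from -3.08 to 1.29 around a host ratio of -1.64.

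The second comparison set Dgcr8 KO against WT in 4sU RNA. Nascent levels of the members were shifted downward. The median log2 change was -0.39 over the members and -0.02 over all genes, and 183 of 199 members had a change below 0. At an adjusted p value below 0.05 without a limit on the change, 104 members were lower and 4 higher (background 28% lower and 28.3% higher). With a log2 change beyond 1 as well, 7 were lower and 0 higher in limma (background 5.27% and 9.5%), and 0 were higher with edgeR, with DESeq2 or at an unadjusted p under 0.05. Without WT replicate 1, 13 passed both limits. Per class, 29 of 57 C/D, 13 of 26 H/ACA and 62 of 112 other members were lower at the adjusted p alone. The median changes were -0.37, -0.33 and -0.44. Without WT replicate 2 and KO replicate 3 the median was -0.22, with 54 members lower and 6 higher. In that fit 3402 of all 14033 genes were lower and 3698 higher, with a median of -0.008. The share of members that were lower was then near that of all genes, while the share that were higher stayed below it. Setting KO against WT libraries by number, an arbitrary pairing, gave medians of -0.21, -0.46 and -0.48.

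**Figure D3:**
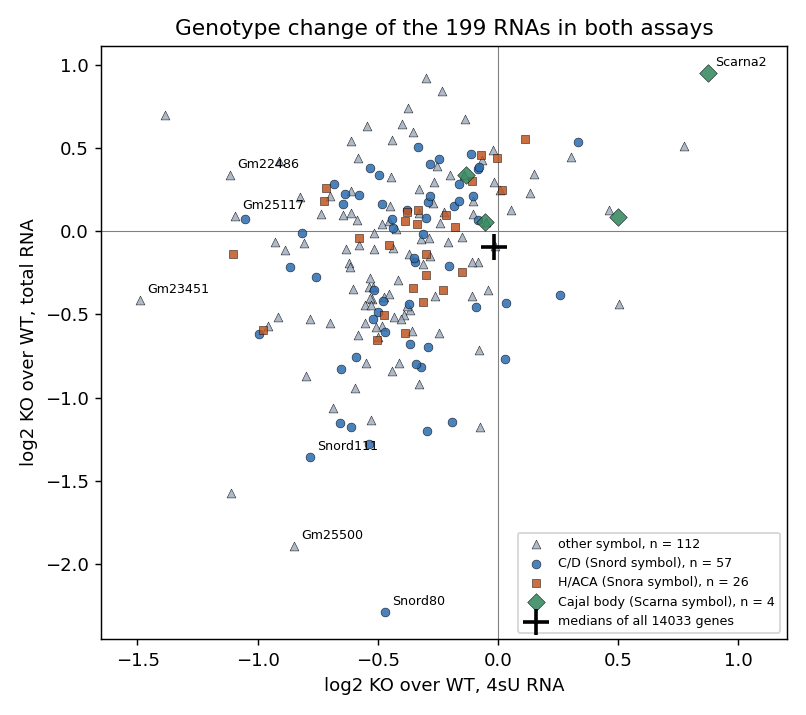
Log2 change in Dgcr8 KO in 4sU RNA (x axis) and in total RNA (y axis) for each of the 199 members, with the medians of all genes as a black cross. Most members lie left of 0 in 4sU RNA (183 of 199), and Scarna2 lies highest on both axes.

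The 7 members past both limits were each low to moderate in level. Gm25117, of H/ACA type in the histone chaperone gene Nap1l1, was at 11.3, 12.8 and 13.3 CPM in WT 4sU RNA and at 5.60, 6.30 and 5.33 CPM in KO 4sU RNA. The groups did not overlap, and the log2 change was -1.10 ± 0.21 (adjusted p = 5.35e-05). It was called in all 15 other fits tried, and its total level did not move past the test (log2 change 0.09, adjusted p = 0.535). Gm23451, in the topoisomerase gene Top2a, was at 7.56, 6.07 and 6.05 CPM in WT and 2.60, 2.67 and 1.71 CPM in KO 4sU RNA, a log2 change of -1.49 ± 0.33 (adjusted p = 0.000316). Of its 50-base words, 27.4% occur elsewhere. Gm24507 changed by -1.38 ± 0.41 (adjusted p = 0.00479) and Gm22486 by -1.12 ± 0.30 (adjusted p = 0.00197). Snora15, an H/ACA guide in Cct6a, changed by -1.10 ± 0.34 (adjusted p = 0.00688). Snord110, a C/D guide in Nop56, was at 9.01, 10.3 and 10.7 CPM in WT and 5.40, 5.15 and 3.81 CPM in KO 4sU RNA, a log2 change of -1.05 ± 0.23 (adjusted p = 0.000265). Gm26109, in the mitochondrial chaperone gene Hspa9, changed by -1.11 ± 0.39 (adjusted p = 0.0156), a call lost with the replicate block (adjusted p = 0.0553), with DESeq2, without the filter, and without WT replicate 2 or KO replicate 1. The calls of Snora15 and Snord110 were lost in 3 other fits each, among them those without WT replicate 3 or KO replicate 3, and that of Gm22486 without WT replicate 3 or KO replicate 2.

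The hosts moved in the same direction. Of the 102 distinct hosts, all of which passed the filter, 85 were lower and 3 higher in KO 4sU RNA at the adjusted p alone (background 28% lower and 28.3% higher). Their median log2 change was -0.32, against -0.02 over all genes. These host values are from the fit of all 12 libraries only. Across the 181 members with a host, Spearman's rho between the 4sU change of the member and that of its host was 0.46, where members of 1 host share its value. The median difference between member and host was -0.03, and 99 of the 181 lay below their host. For Gm25117 the host Nap1l1 changed by -0.67, for Gm23451 the host Top2a changed by -0.78, and for Snord110 the host Nop56 changed by -0.46. Per kilobase, the member stood at a median of 1.145 times its host's exon level in WT 4sU RNA and 0.607 times in WT total RNA.

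**Figure D4:**
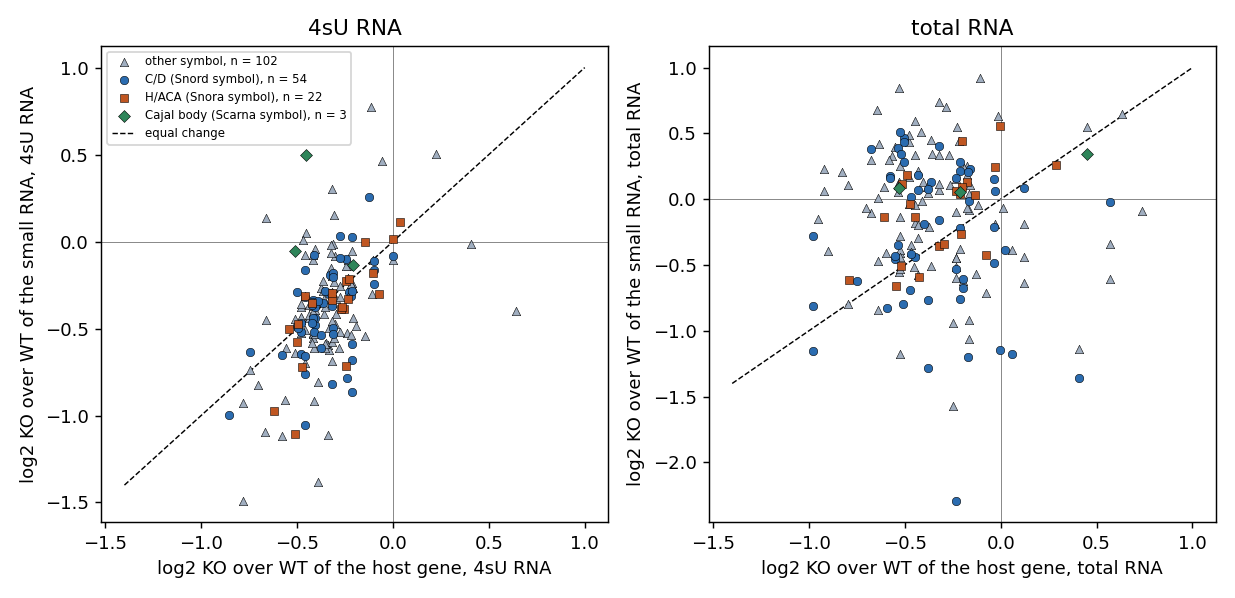
Log2 change in Dgcr8 KO of each member (y axis) against that of its host gene (x axis) in 4sU RNA (left) and total RNA (right), 181 members with a host, with a dashed line of equal change. The points follow the line loosely in 4sU RNA (rho 0.46) and have a rho of -0.03 in total RNA.

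The 4 members higher in KO 4sU RNA at the adjusted p alone were Scarna2, Gm22009, Scarna9 and Snord104. Gm22009, of biotype scaRNA with both C and D boxes, lies in the importin gene Kpna4 and changed by 0.78 ± 0.11 (adjusted p = 2.52e-07). Scarna9 changed by 0.50 ± 0.17 (adjusted p = 0.0136) and Snord104, which lies in no annotated host here, by 0.33 ± 0.14 (adjusted p = 0.0379). The host Kpna4 changed by -0.12 and the host of Scarna9, Cep295, by -0.46.

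The third comparison set Dgcr8 KO against WT in total RNA. Steady-state levels of the members moved both ways. The median log2 change was -0.06, against -0.09 over all genes, and 26 members were higher and 29 lower at the adjusted p alone (background 27.2% higher and 36.7% lower). The sign of the median depended on the libraries, being 0.01 without WT replicate 2 and 0.002 without that and KO replicate 3. With a log2 change beyond 1 as well, 7 were lower and 0 higher in limma (background 7.82% and 9.33%). No member was higher past both limits with edgeR or at an unadjusted p under 0.05, and 1 was with DESeq2. Without WT replicate 2, 4 members passed both limits.

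Length also ran with this change. The median was -0.28 for members of 60 to 100 bases, 0.08 for those of 101 to 150 and 0.29 for those of 151 to 414. At the adjusted p alone, 5 of the 105 shortest members were higher and 23 lower, and 10 of the 18 longest were higher. These are 4.76% higher and 21.9% lower of the shortest and 55.6% higher of the longest, against 27.2% higher and 36.7% lower of all genes, so the share of short members that were lower was under that of all genes. Spearman's rho of length with the change was 0.42 over the 199 members in total RNA and 0.02 in 4sU RNA. Over the 127 members covered in both assays it was 0.41 in total RNA and 0.05 in 4sU RNA. In total RNA, rho between the change of a member and that of its host was -0.03, and the median difference between member and host was 0.23.

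Scarna2, a long scaRNA transcribed from its own promoter, had the largest rise. It was at 239.6, 231 and 259 CPM in WT total RNA and at 466, 468 and 477 CPM in KO total RNA, with no overlap. The log2 change was 0.95 ± 0.06 (adjusted p = 1.11e-14), just under the fold limit. In 4sU RNA it was at 61.9, 64.6 and 87.2 CPM in WT and 131, 118 and 139 CPM in KO, a log2 change of 0.87 ± 0.09 (adjusted p = 8.9e-10). Its interaction term was 0.08 ± 0.11 (adjusted p = 0.697). Scarna6 rose by 0.34 ± 0.08 in total RNA (adjusted p = 0.000662), and Gm25395 by 0.55 ± 0.09 (adjusted p = 2.81e-06). The host they share, Atg16l1, changed by 0.45 in total RNA. Scarna13 changed by 0.06 ± 0.08 (adjusted p = 0.557) and Scarna9 by 0.09 ± 0.13 (adjusted p = 0.579). Of the 9 members of biotype scaRNA, 5 were higher in total RNA at the adjusted p alone and 1 was lower (55.6% and 11.1%, background 27.2% and 36.7%).

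**Figure D5:**
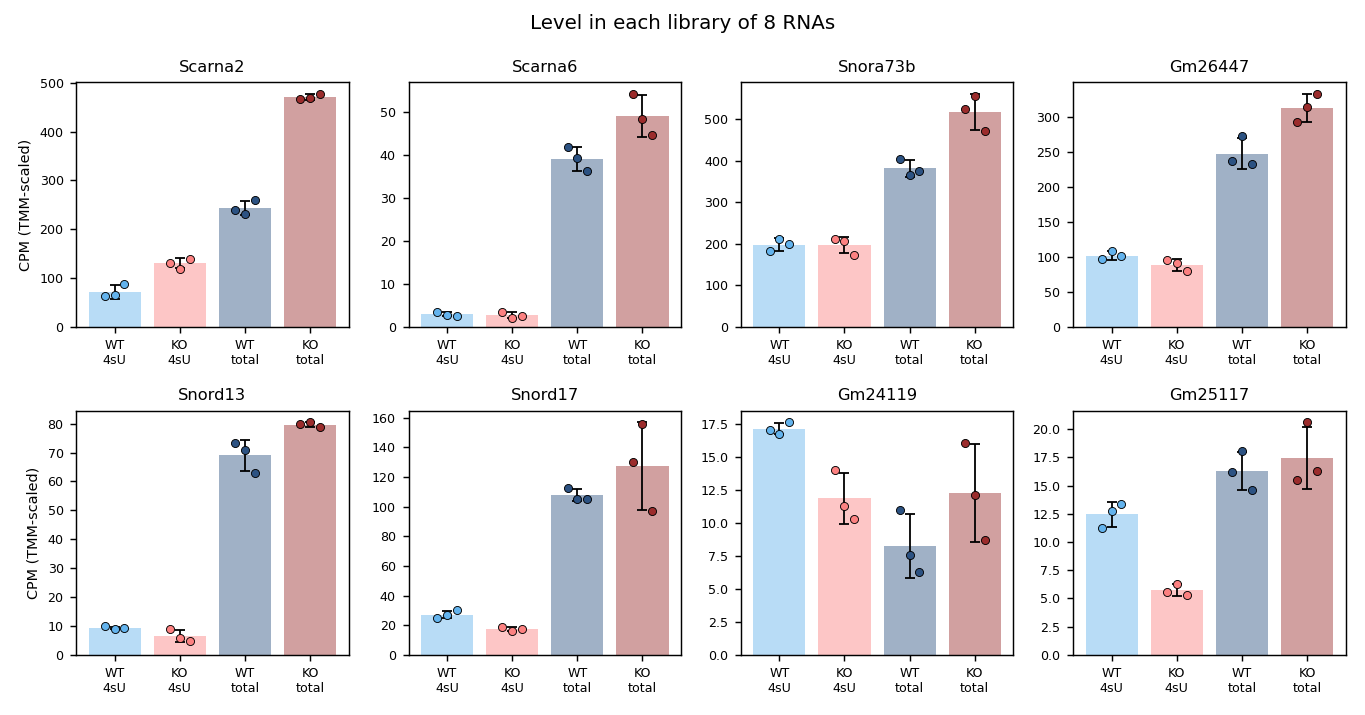
CPM (TMM-scaled) in each of the 12 libraries for 8 members, as points over bars of the group mean with the SD of 3 libraries. Scarna2 rises in KO in both assays, Snora73b rises in total RNA, and Gm25117 falls in 4sU RNA.

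Among named guides, Snora73b, an abundant H/ACA RNA involved in early rRNA cleavage, was at 405, 366 and 375 CPM in WT total RNA and at 526, 557 and 471 CPM in KO total RNA. The log2 change was 0.44 ± 0.06 (adjusted p = 1.27e-07), while in 4sU RNA it was -0.005 ± 0.08. Snord14c and Snord14d, C/D guides in introns of the chaperone gene Hspa8, rose in total RNA by 0.46 ± 0.08 and 0.43 ± 0.08 (adjusted p = 2.5e-06 and 2.05e-05), while the host changed by -0.50. Snora57, with 16.2% of its 50-base words shared, rose by 0.46 and Gm25835, in Eif4a1, by 0.49, while Eif4a1 changed by -0.48. Snora24 in Snhg8 fell by 0.61 on the log2 scale and Snora52 in Rplp2 by 0.34. Snora78 and Snora68 had changes of 0.10 ± 0.10 and 0.03 ± 0.14 and did not pass the test.

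The members that fell past both limits in total RNA were all scarce there, at 3.90 CPM or less in every library. Snord111, a C/D guide in the splicing factor gene Sf3b3, was at 1.87, 1.71 and 1.51 CPM in WT total RNA and at 0.451, 0.908 and 0.577 CPM in KO total RNA. The groups did not overlap, and the log2 change of -1.36 ± 0.45 (adjusted p = 0.00979) was called in all 14 other fits. Snord72 in Rpl37 was at 2.34, 3.90 and 2.32 CPM in WT and 1.02, 1.82 and 0.722 CPM in KO total RNA, a log2 change of -1.28 ± 0.43 (adjusted p = 0.0108), a call lost without WT replicate 2. The calls of Gm22571 (without WT replicate 1, KO replicate 1 or KO replicate 3) and Gm25500 (without WT replicate 2, KO replicate 1 or KO replicate 2) were also lost. Gm22571 in Rpl4 changed by -1.06 ± 0.35 (adjusted p = 0.00801). Snord80 in Gas5, whose call was lost without WT replicate 2 and KO replicate 3 together, was at 1.87, 2.19 and 1.63 CPM in WT and 1.13, 0.52 and 0 CPM in KO total RNA, with a fitted log2 change of -2.29 ± 0.68 (adjusted p = 0.00415). The fitted change was -1.19 without KO replicate 3, the library at 0 CPM, -3.24 without KO replicate 1 and -1.64 in edgeR. It overlaps a second Snord80 record, so shared reads were left uncounted. Snord59a and Snord4a were called in 6 and 7 of 14 other fits. Gm25500, whose 50-base words all occur elsewhere, had 3 counts or fewer in each KO total library, so its level in WT was at least 1.58-fold higher.

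The fourth comparison was the interaction of genotype and assay, which asks whether the total over 4sU ratio differed between the genotypes. Most members that moved had a higher ratio in Dgcr8 KO. At the adjusted p alone, 34 members were higher and 0 lower in limma (background 5.02% higher and 11.1% lower). The unadjusted counts below 0.05 were 53 higher and 3 lower, edgeR gave 38 higher and 1 lower, and DESeq2 37 higher and 0 lower. The median term was 0.25 over the members and -0.09 over all genes. Past both limits 7 members were higher and 0 lower in limma (background 0.791% and 0.969%), with 10 and 1 at an unadjusted p under 0.05, 8 and 0 in edgeR, and 9 and 0 in DESeq2. Without WT replicate 2 and KO replicate 3, 25 were higher and 1 lower at the adjusted p alone (595 and 1177 of all 14033 genes). Without WT replicate 3, 2 members passed both limits. By class, 13 of 57 C/D (22.8%), 2 of 26 H/ACA (7.69%) and 19 of 112 other members were higher at the adjusted p alone. The median terms were 0.29, 0.37 and 0.25. Among members with other symbols the order of these shares was the opposite. There, 4 of 37 with the C and D pair (10.8%, median 0.08) and 12 of 47 with the H and ACA pair (25.5%, median 0.44) were higher.

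Gm22486 had the largest called term, 1.45 ± 0.35 (adjusted p = 0.00329). It was at 6.11, 6.07 and 7.83 CPM in WT and 3.20, 2.48 and 3.43 CPM in KO 4sU RNA, where the groups did not overlap. In total RNA it was at 7.96, 7.68 and 6.27 CPM in WT and 11.9, 8.30 and 7.22 CPM in KO, where they did overlap. Gm25394, in the tRNA synthetase gene Iars, had a term of 1.33 ± 0.43 (adjusted p = 0.0298) and Gm25128, in the helicase gene Ddx39b, of 1.22 ± 0.39 (adjusted p = 0.0294). These terms were called in 9 and 8 of 15 other fits. The term of Gm24507 was larger, 2.08 ± 0.84, and did not pass (adjusted p = 0.0894). Gm25117 had 1.19 ± 0.24 (adjusted p = 0.000751) and Gm24119, of H/ACA type in the phosphate carrier gene Slc25a3, had 1.18 ± 0.27 (adjusted p = 0.00221). Snord110 had 1.12 ± 0.32 (adjusted p = 0.014), and Gm22767 in Ppp1r8 had 1.02 ± 0.36 (adjusted p = 0.0476). The call of Gm22767 was lost in 5 of 16 other fits (without the filter and without WT replicate 1, WT replicate 3, KO replicate 1 or KO replicate 2). That of Snord110 was lost in 3 of 16 (without WT replicate 3, without KO replicate 3 and without WT replicate 2 and KO replicate 3 together), and that of Gm24119 without WT replicate 3.

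Genes for the proteins that build and release these RNAs were followed as fixed lists. All 4 C/D core genes (Fbl, Nop56, Nop58 and Snu13) and all 4 H/ACA core genes (Dkc1, Nop10, Nhp2 and Gar1) fell in KO total RNA at the adjusted p alone (background 36.7%). The largest fall was that of Nhp2, at 178 ± 3.60 CPM in WT and 79.3 ± 3.23 CPM in KO (SD, n = 3), with log2 change -1.22 ± 0.06 (adjusted p = 5.86e-17). Nop58 changed by -0.32 ± 0.05 and Nop56 by -0.43 ± 0.06. Of 9 assembly factor genes tested (10 were listed), 5 fell and the other 4 did not pass the test, Znhit3 having the largest change (-0.98 ± 0.10). Of 7 Cajal body and trafficking genes, 5 fell, and Coil, which encodes the Cajal body scaffold coilin, changed by -1.06 ± 0.06 (adjusted p = 5.02e-17). Of 8 genes for intron release and end trimming, 3 fell (Exosc3, Dis3 and Tent4b) and Parn, a deadenylase that trims H/ACA 3′ ends, rose by 0.26 ± 0.07 (adjusted p = 0.00129). The 3 of 8 that fell were near the share of all genes (36.7%), and the 1 of 8 that rose was under its share (27.2%). In 4sU RNA 2, 3, 4, 5 and 2 genes of these lists fell, in the order given (background 28%). The 2 of 8 for intron release and end trimming were near that share. Parn rose there by 0.25 ± 0.09 (adjusted p = 0.0154). Drosha rose by 0.28 ± 0.05 in total RNA. Terc, the telomerase RNA, which carries an H/ACA domain, was at 57.6 ± 2.62 CPM in WT and 93.5 ± 1.35 CPM in KO total RNA, with log2 change 0.65 ± 0.08 (adjusted p = 6.26e-09).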

How the data were processed

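The authors deposited raw read counts for every gene and all 12 libraries. Per the labels and the file header, they trimmed reads with Cutadapt 1.14, mapped them uniquely to mm10 with STAR 2.5.3a and counted exon reads by strand with featureCounts 1.5.3 against GENCODE M14 without rRNA genes. Unique mapping under-counts near-identical copies, and reads on several genes were not counted. The table also lists 92 spike-in records, which held 1 count in all.

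The 51559 identifiers were matched to GENCODE M21 of the same build, and 51274 matched. Biotypes, hosts and sequences came from M21, and all 1558 sequences had the length of the table. A host was the shortest protein-coding or long noncoding gene on the same strand whose span held the member. RefSeq (GRCm38.p6) gave the name Snord94. Coordinates are mm10, 1-based.

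Following the study, genes with at least 3 CPM in at least 3 libraries were kept and fitted in 1 model of all 12 libraries with limma 3.58.1 (voom weights), with TMM factors of edgeR 4.0.16 under R 4.3.3. The steps were tested on simulated counts with large known changes set in KO total RNA alone. Total RNA and the interaction were scored there, but not the 4sU or ratio comparisons or smaller changes. Adjusted p values are Benjamini-Hochberg over all 14033 genes. CPM values of members are TMM-scaled, those of other genes scaled to library size. Total counts of 4593914 to 9295245 per library put the floor of 3 counts at 0.323 to 0.653 CPM, which covers counting error only. Alternatives were edgeR, DESeq2 1.42.0, other scalings and filters, replicate blocks and left-out cultures.

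Members and lists were chosen with earlier results of these data known. Named members were, by rule, up to 6 called rises and falls per genotype contrast, the 5 highest and 5 lowest WT ratios, the 6 highest levels per class and every Scarna gene. Others were chosen after their values were seen. Replicate numbers come from the titles. Same-numbered WT and KO libraries deviated from their group means with correlations of -0.0825 to 0.0777, so the numbers were not taken to pair genotypes. Total and 4sU libraries of 1 number were taken as portions of 1 culture, from the titles and the methods of the study. Their deviations correlated at only 0.0161 to 0.105. A fit with a culture block used this sharing.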

Additional observations from a re-analysis of the deposited data

Results flagged for a closer look

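Of the 199 members, 9 changed in opposite directions in KO total and KO 4sU RNA, each past an adjusted p of 0.05 in limma, with an interaction term that also passed, and 205 of all genes (1.46%) met the same rule. All 9 were higher in total RNA and lower in 4sU RNA. The interaction terms were 1.18 for Gm24119, 0.95 for Gm24616 (in Eif4a2), 0.86 for Snord17, 0.84 for Snord22 and 0.79 for Snord13. They were 0.77 for Gm23262, 0.68 for Snord14d, 0.53 for Gm26447 and 0.47 for Snord15a. Snord17, at 113, 105 and 105 CPM in WT and 129.8, 156 and 96.8 CPM in KO total RNA, was at 24.9, 26.6 and 29.9 CPM in WT and 18.99, 16.02 and 17.1 CPM in KO 4sU RNA. KO replicate 3 had the lowest share of member counts among the 4sU libraries. Without it, 8 of the 9 terms still passed an adjusted p of 0.05 in limma and ran from 0.41 (Gm26447) to 1.29 (Gm24119). That of Snord13 was 0.60 ± 0.25 and did not pass (adjusted p = 0.104).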

How the results depend on the processing

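Of 414 alternative values for 28 named results, 366 kept their direction and side of the threshold, 48 were no longer past it and 0 reversed. Leaving out each culture in turn gave 4 to 9 called members in total RNA, 6 to 13 in 4sU RNA and 2 to 10 for the interaction, and medians of -0.124 to 0.005486 in total RNA (above 0 only without WT replicate 2), -2.127 to -2.047 for the WT ratio and -1.763 to -1.597 for the KO ratio. Requiring 3 CPM in all 12 libraries left 104 members, by construction the better covered ones. In total RNA 0 were then called in limma (23 were higher and 16 lower at the adjusted p alone; edgeR and DESeq2 were not run with this filter), in 4sU RNA 2, for the interaction 4, for the WT ratio 78 and for the KO ratio 70, with medians of 0.08565 in total RNA, 0.369 for the interaction, -1.556 for WT and -1.202 for KO. With no fold limit, 55, 108 and 34 were called in total RNA, 4sU RNA and the interaction. DESeq2 called 11 in 4sU RNA and gave medians of 0.3576 for the interaction and -2.162 for the WT ratio. Without a filter, 4 were called for the interaction, and the ratios had medians of -1.989 (WT) and -1.603 (KO). RLE scaling called 12 for the interaction, with medians of 0.342 and, for the WT ratio, -2.183. It also turned the interaction calls of all genes from 704 higher and 1557 lower to 1049 and 960. Scaling by library size gave ratios of -2.255 (WT) and -1.859 (KO), and upper-quartile scaling -2.404 and -1.968, where the median of all genes in WT went from 0.08 to -0.24. Without WT replicate 2 and KO replicate 3 together, an alternative chosen after seeing the data, the medians were 0.001681 in total RNA, -0.2183 in 4sU RNA, -2.14 for the WT ratio and -1.669 for the KO ratio, and 12 members were called for the interaction. With the replicate block, 9 members were called in total RNA, 7 in 4sU RNA and 8 for the interaction (7 higher and 1 lower, and 41 and 2 at the adjusted p alone). With the block of shared cultures, 8 were called higher for the interaction, and 43 were higher and 1 lower at the adjusted p alone. The causes of these differences were not tested beyond what each setting changes. The floor of 0.323 to 0.653 CPM limits the members scarce in total RNA.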
